A study of Mus musculus with 3 samples.

Results

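The 10 genes described here regulate iron in the hepatocyte: the hepcidin genes Hamp and Hamp2, the hepcidin regulators Tmprss6, Hfe and Tfr2, the uptake receptor Tfrc, the plasma carrier Trf (transferrin), the exporter Slc40a1 (ferroportin) and the ferritin subunits Fth1 and Ftl1. They were chosen by name, with their levels and their differences between tauroursodeoxycholic acid (TUDCA) and DMSO in these same libraries already known, so those differences are described without a test. Each symbol matched 1 of the 37620 gene identifiers in the tables, and all 10 genes had a mean of at least 1 RPKM (reads of a gene, scaled by its length and by the size of the library).

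Messenger RNA was sequenced from primary hepatocytes of C57BL/6 mice in 2 libraries labelled TUDCA and 1 labelled DMSO, the solvent. TUDCA is a taurine-conjugated bile acid, known too as a chemical chaperone, and the study asked which genes it modulates. TUDCA was given at 100 mM for 24 h as labelled, a dose whose unit could not be checked. No dose or time is given for DMSO and no age for the mice, so unequal culture times and the treatment cannot be told apart. In both groups the cells, labelled passage 1, came from collagenase-perfused livers and were kept on gelatin in medium with serum and insulin. Of 2 independent experiments, the labels do not say which library came from which, so the TUDCA libraries may differ for technical reasons alone.

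Iron balance in the body is set by hepcidin, a small peptide hormone that hepatocytes secrete and that makes cells take ferroportin off their surface and degrade it. Hepcidin transcription is driven by bone morphogenetic protein (BMP) signalling through SMAD proteins, with hemojuvelin as a co-receptor, and by interleukin-6 through STAT3. HFE and transferrin receptor 2 help to sense the iron that transferrin carries, and the protease TMPRSS6 cleaves hemojuvelin and so restrains hepcidin. Inside cells, iron regulatory proteins stabilise Tfrc mRNA and block translation of ferritin and ferroportin mRNA when iron is scarce, so ferritin mRNA is not a measure of ferritin protein.

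Mouse chromosome 7 carries both hepcidin genes, and their promoters are shown because the pair was the most different from DMSO of the 10 genes. The sequences are the 250 bases before the transcription start on the minus strand, from RefSeq on GRCm38.p6, at chr7:30944030-30944279 for Hamp and chr7:30924182-30924431 for Hamp2. Capitals mark, from left to right, the Hamp match to the core of the BMP response element (GGCGCC) with the 6 Hamp2 bases aligned to it, and a match to the STAT motif (TTCNNNGAA).
Hamp: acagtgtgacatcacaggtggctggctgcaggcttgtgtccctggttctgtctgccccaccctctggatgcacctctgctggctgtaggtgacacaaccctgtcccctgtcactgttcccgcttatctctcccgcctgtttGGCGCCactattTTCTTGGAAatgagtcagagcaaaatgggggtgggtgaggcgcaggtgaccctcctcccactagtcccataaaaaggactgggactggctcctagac
Hamp2: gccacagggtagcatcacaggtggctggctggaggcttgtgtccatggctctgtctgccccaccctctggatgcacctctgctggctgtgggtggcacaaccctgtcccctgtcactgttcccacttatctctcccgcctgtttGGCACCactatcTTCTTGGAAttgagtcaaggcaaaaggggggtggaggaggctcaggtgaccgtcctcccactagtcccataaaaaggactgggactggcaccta
Over 247 aligned bases the promoters were 91.9% identical. The STAT motif was intact in both, 97 bases before the start in Hamp and 94 in Hamp2. The BMP response element core began 109 bases before the start in Hamp, and the aligned Hamp2 stretch carried the substitution G145A, counted from 1 at the 5' end of the Hamp sequence. Searched on both strands, GGCGCC occurred in the upstream 250 bases of 9.59% and TTCNNNGAA of 7.02% of 32851 RefSeq promoters. An AP-1 motif (TGAGTCA, 4.46% of promoters) lay close behind the STAT motif in both hepcidin genes, and it was also found in the promoter of Hfe. Of the 7 genes of the set in the promoter table, Tfrc was the other with GGCGCC. The matches describe letters in these windows, and binding was not measured.

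Hamp (ENSMUSG00000050440), the hepcidin that acts on iron, stood at 3752 RPKM in TUDCA replicate 1 and 1866 RPKM in TUDCA replicate 2, against 486.1 RPKM in DMSO. Hamp2 (ENSMUSG00000056978), a paralog that is not known to act on iron as Hamp does, had 126.6 and 59.3 RPKM in TUDCA replicates 1 and 2, against 13.4 RPKM in DMSO. For both genes each TUDCA library lay above DMSO, and TUDCA replicate 1 was the highest. Hamp was thus 7.72 times and 3.84 times its DMSO level in TUDCA replicates 1 and 2, and Hamp2 9.46 times and 4.43 times. On the log2(RPKM + 1) scale, used for all differences below, Hamp differed from DMSO by 2.95 and 1.94, and Hamp2 by 3.15 and 2.07.

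The hepcidin reads were not few. As the smallest whole numbers that the RPKM values allow, Hamp had 14353 and 7736 reads in the TUDCA libraries and 2053 in DMSO, and Hamp2 had 540 and 274 reads against 63. Exact Poisson 95% intervals for Hamp2, which cover counting error only, were 116.2 to 137.8 RPKM and 52.5 to 66.7 RPKM in TUDCA replicates 1 and 2, and 10.3 to 17.1 RPKM in DMSO. By level, Hamp ranked 16 and 40 among all gene identifiers in TUDCA replicates 1 and 2, against 214 in DMSO. Hamp2 ranked 945 and 2172, against 5902 in DMSO.

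The transcripts of Hamp and Hamp2 were 94.6% identical over 410 aligned bases, with a longest identical run of 87 bases, and how their reads were divided between them is therefore uncertain. Per length, Hamp exceeded Hamp2 29.6-fold and 31.5-fold in TUDCA replicates 1 and 2, and 36.3-fold in DMSO. The TUDCA libraries themselves differed 2.01-fold for Hamp and 2.14-fold for Hamp2. Of the 11300 genes that averaged 1 RPKM or more, 0.673% had TUDCA libraries at least as far apart as those of Hamp, and 0.566% as those of Hamp2.

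**Figure D1:**
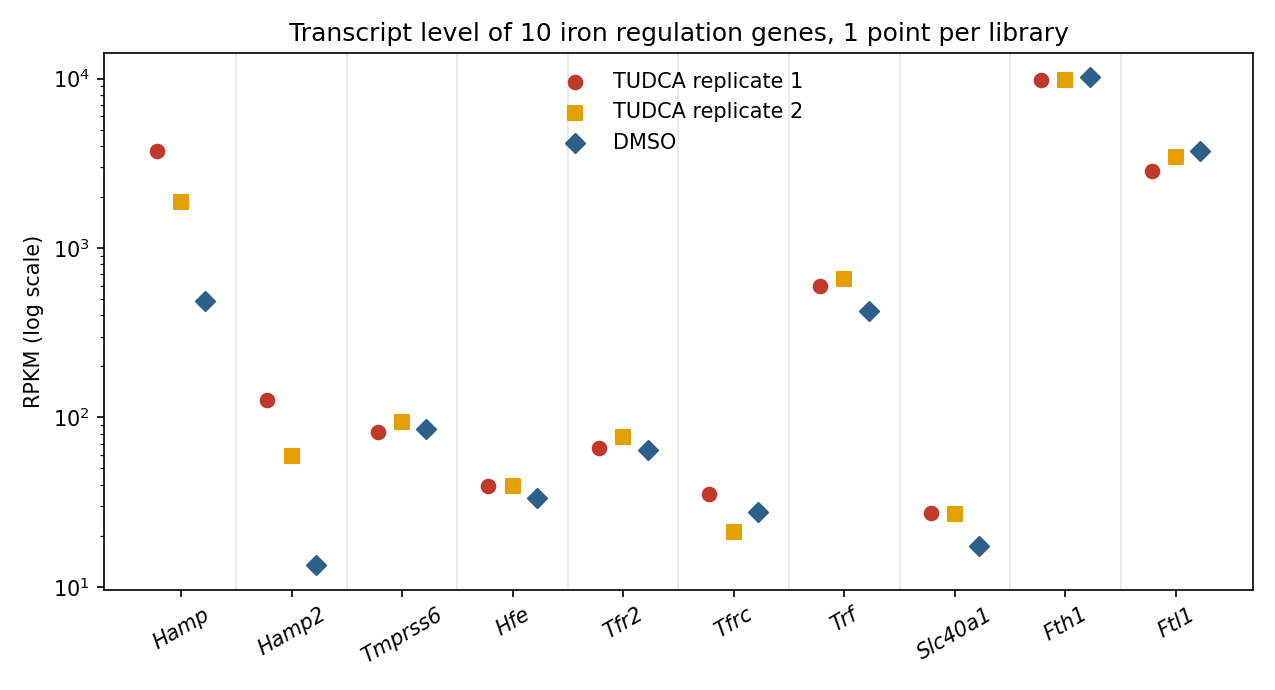
Level of the 10 genes in RPKM on a logarithmic axis, with 1 point for each of the 3 libraries and no error bars. Hamp and Hamp2 lie well above DMSO in both TUDCA libraries, while Fth1 stands near 9820 RPKM in the TUDCA libraries and at 10152 RPKM in DMSO.

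Among the regulators upstream of hepcidin, levels lay close together. Tmprss6 (ENSMUSG00000016942), the restraining protease, had 82.1 and 94.2 RPKM in TUDCA replicates 1 and 2 and 85.3 RPKM in DMSO. The DMSO level thus lay between the TUDCA libraries, with differences of -0.06 and 0.14. Hfe (ENSMUSG00000006611), the protein mutated in the common form of hereditary haemochromatosis, had 39.47 and 39.55 RPKM with TUDCA and 33.6 RPKM in DMSO. Tfr2 (ENSMUSG00000029716) had 66.1 and 76.3 RPKM with TUDCA and 63.8 RPKM in DMSO. Both genes were higher in each TUDCA library, by 0.23 and 0.23 for Hfe and by 0.05 and 0.25 for Tfr2. The exact Poisson 95% interval of Tfr2 in TUDCA replicate 1 was 63.1 to 69.3 RPKM and overlapped that in DMSO, 61.0 to 66.7 RPKM. In TUDCA replicate 2 it was 73.2 to 79.5 RPKM. For Hfe both TUDCA intervals, from 36.2 and 36.4 RPKM upward, began slightly below the upper end in DMSO, 36.7 RPKM. Such intervals rest on the smallest whole reads and would be narrower at a multiple, so this small overlap is uncertain. Hamp per unit of Tmprss6 was 45.7 and 19.8 in TUDCA replicates 1 and 2, against 5.70 in DMSO.

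For iron uptake, Tfrc (ENSMUSG00000022797), the receptor that takes up transferrin-bound iron, had 35.5 RPKM in TUDCA replicate 1 and 21.0 RPKM in TUDCA replicate 2, against 27.7 RPKM in DMSO. The TUDCA libraries stood on either side of DMSO, at 0.35 and -0.38, so no direction can be given for Tfrc. Only 2.43% of the 11300 genes had TUDCA libraries at least as far apart. Trf (ENSMUSG00000032554), which encodes the transferrin that hepatocytes secrete into plasma, had 599.7 and 652.7 RPKM with TUDCA and 421.5 RPKM in DMSO. Both TUDCA libraries were above DMSO, by 0.51 and 0.63, and they differed from each other less than from DMSO. Per length, Tfr2 exceeded Tfrc 1.86-fold and 3.63-fold in TUDCA replicates 1 and 2, and 2.31-fold in DMSO.

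Ferroportin mRNA stood higher with TUDCA as well. Slc40a1 (ENSMUSG00000025993), the only known cellular iron exporter in mammals and the target of hepcidin protein, had 27.08 and 27.05 RPKM in TUDCA replicates 1 and 2, against 17.4 RPKM in DMSO. The TUDCA libraries nearly coincided, each 0.61 above DMSO, which is 1.56 times its level. By the smallest whole numbers Slc40a1 had 893 and 967 reads with TUDCA and 633 in DMSO. The exact Poisson 95% intervals were 25.3 to 28.9 RPKM and 25.4 to 28.8 RPKM in TUDCA replicates 1 and 2, and 16.1 to 18.8 RPKM in DMSO. Because hepcidin removes ferroportin at the protein level, these transcript values do not say how much exporter the cells held.

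By mean level under TUDCA and in DMSO, the ferritin genes stood highest of the set, while in TUDCA replicate 1 Hamp exceeded Ftl1. Fth1 (ENSMUSG00000024661), the heavy chain that oxidises iron, was the gene with the third-highest level in every library and had 9822 and 9818 RPKM with TUDCA and 10152 RPKM in DMSO. Its difference from DMSO was -0.05 in each TUDCA library. Ftl1 (ENSMUSG00000050708), the light chain that aids mineral formation, had 2851 and 3426 RPKM with TUDCA and 3723 RPKM in DMSO, with differences of -0.38 and -0.12. Both ferritin genes were thus lower in each TUDCA library. Quantile normalization gives equal ranks equal values, so for Fth1, with the same rank in every library, its mean difference of -0.00 was fixed in advance. Fth1 exceeded Ftl1 3.45-fold and 2.87-fold in TUDCA replicates 1 and 2, and 2.73-fold in DMSO. Ferritin genes have many processed pseudogenes. Of those in the tables by name, the heavy-chain copy Fth-ps2 was listed at 0 in both TUDCA libraries and had 0.180 RPKM in DMSO. Of the light-chain copies, Ftl1-ps1 had 0.778 and 0.615 RPKM with TUDCA and 0.604 RPKM in DMSO, and Ftl2-ps had 0.743 and 0.171 RPKM with TUDCA and 0.336 RPKM in DMSO, and the division of reads among such copies is uncertain. Ftmt, mitochondrial ferritin, was listed at 0 in all 3 libraries.

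**Figure D2:**
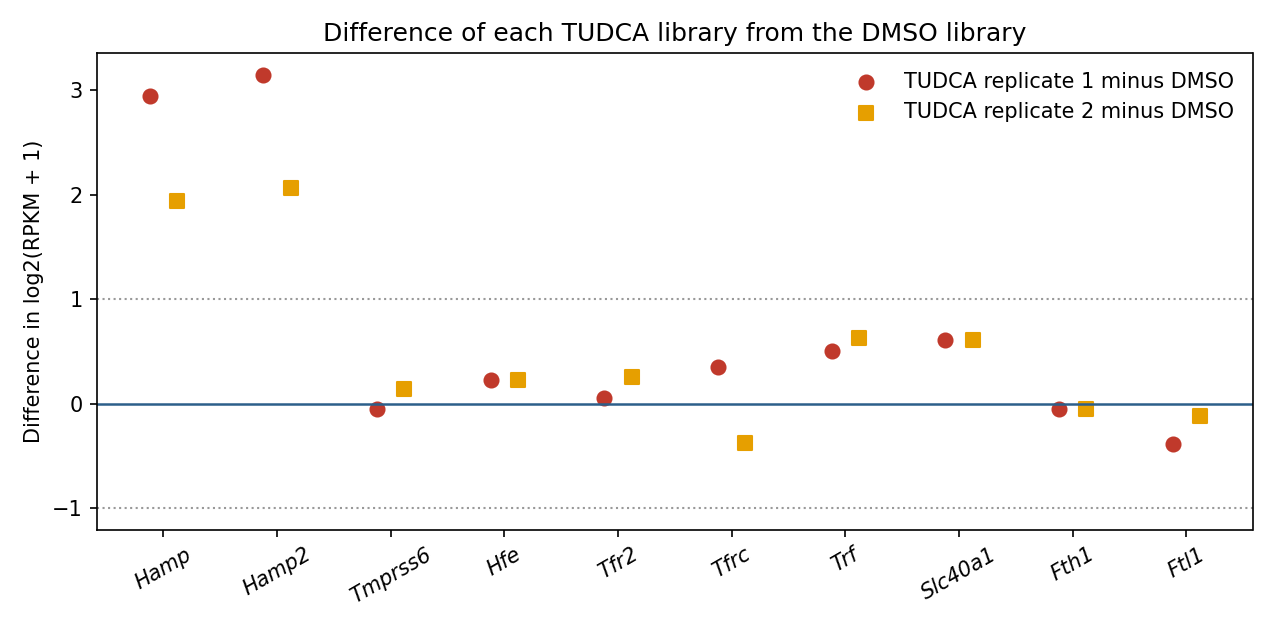
Difference of each TUDCA library from the DMSO library in log2(RPKM + 1) for the 10 genes, with the DMSO level at 0 and dotted lines at 1 and -1. Hamp and Hamp2 lie beyond 1 in both libraries, and the other genes lie between -0.38 and 0.63.

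Ordered by mean level under TUDCA, the genes ran Fth1, Ftl1, Hamp, Trf, Hamp2, Tmprss6, Tfr2, Hfe, Tfrc and Slc40a1. The TUDCA libraries of Ftl1 (3138 ± 406 RPKM, SD, n = 2) and Hamp (2809 ± 1334 RPKM) overlapped in level, as did those of Tfrc and Slc40a1. Hamp2 (93.0 ± 47.6 RPKM) overlapped both Tmprss6 (88.1 ± 8.5 RPKM) and Tfr2 (71.2 ± 7.2 RPKM). In the single DMSO library Trf was followed by Tmprss6, Tfr2, Hfe, Tfrc and Slc40a1, and Hamp2 came last. All 10 genes together took 1.37% and 1.35% of the reads of TUDCA replicates 1 and 2 and 1.31% of those of DMSO.

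Of the 10 genes, 6 were higher in both TUDCA libraries, 2 were lower in both and 2 had DMSO in between. Over all 11300 genes these shares were 40.5%, 30.4% and 29.1%. Hamp and Hamp2 were the 2 genes at least 1 higher in both TUDCA libraries, a size that 0.77% of the 11300 genes reached, and none of the 10 was 1 lower, a size that 0.283% reached. The median difference of the 10 genes was 0.29 and 0.24 in TUDCA replicates 1 and 2, and that of all 11300 genes was 0.06 and 0.02. Since the genes were chosen with these differences known, nothing is read from the shares. Both differences use the same DMSO library, so a chance deviation of that library would move both alike.

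**Figure D3:**
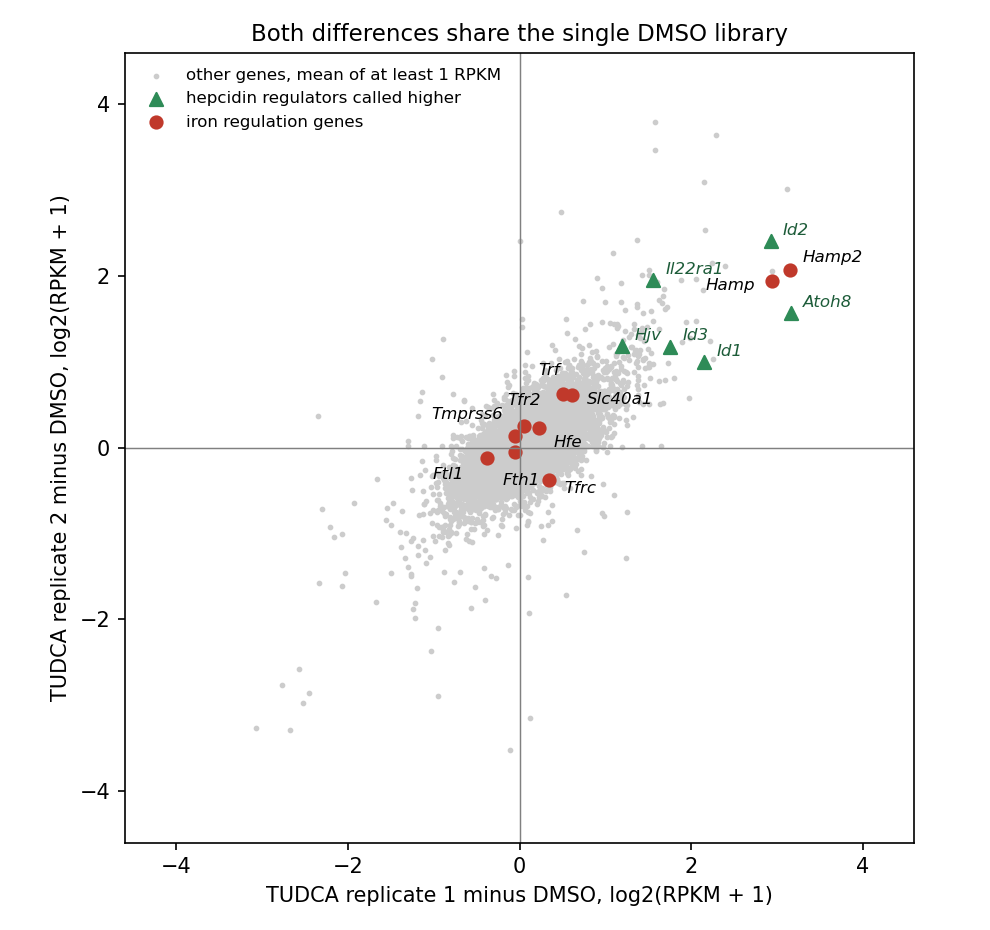
Difference from DMSO in log2(RPKM + 1) of TUDCA replicate 1 (horizontal) and TUDCA replicate 2 (vertical) for 11300 genes in grey, the 10 iron regulation genes in red and, in green, the 6 genes called higher in the list of hepcidin regulators, which also holds targets of BMP-SMAD signalling. Hamp (2.95 and 1.94) and Hamp2 (3.15 and 2.07) lie near Atoh8 and Id2, while the other iron regulation genes lie within the grey cloud.

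Nearness was taken as Euclidean distance between pairs of differences from DMSO, among 11139 genes with a symbol outside the 10. Nearest to Hamp were Apoa5 (distance 0.127), Atoh8 (0.430) and Id2 (0.472). Apoa5, an apolipoprotein of triglyceride metabolism, had 113.9 and 61.8 RPKM in TUDCA replicates 1 and 2 and 14.0 RPKM in DMSO. Nearest to Tfrc were the low genes Gm4987 (distance 0.00731), Tcte2 (0.035) and Ap1s3 (0.0437). Both coordinates of each gene share the DMSO library.

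For the other genes of iron handling, 5 lists of 156 genes without the 10 above were tested with limma over all 11300 genes. Of the 138 listed genes that averaged 1 RPKM or more, 10 rose with TUDCA, none fell and 128 did not pass an adjusted p of 0.05. Over all genes 1.77% rose and 0.876% fell, 2.65% in all, beside 7.25% of the listed genes. The lists were drawn up with values of Id2 and Nfe2l2 in these libraries known, so nothing is read from the difference between these shares. The median difference was 0.05 for the listed genes and 0.04 for all genes. With no filter on low levels limma called none of 19146 genes (1696 had an unadjusted p below 0.05), and none of the 10 calls held there (adjusted p from 0.502 to 0.637). The spread in the test came from the TUDCA pair alone, pooled over genes of similar level, and DMSO was assumed to vary like it.

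Most of the called genes were in the list of hepcidin regulators, which also holds targets of BMP-SMAD signalling. Of its 35 measured genes 6 rose and 29 did not pass. The share called was 17.1%, beside 2.65% of all genes (1.77% higher). Because values of Id2 were known when the list was drawn up, nothing is read from these shares. Id1, Id2, Id3 and Atoh8, transcriptional targets of BMP-SMAD signalling, were among the 6. Id1, an inhibitor of DNA binding by helix-loop-helix proteins, had 141.3 and 63.3 RPKM in TUDCA replicates 1 and 2, against 31.2 RPKM in DMSO (log2 difference 1.57 ± 0.22 SE, limma adjusted p = 3.3e-10). This SE, like those below, came from the spread pooled over genes of similar level, not from the gene's own libraries. The differences of Id1 in TUDCA replicates 1 and 2 were 2.14 and 1.00. Id3, of the same family, had 300.6 and 201.9 RPKM with TUDCA, against 88.6 RPKM in DMSO (1.47 ± 0.20, limma adjusted p = 3.2e-10). As they belong to the family of Id2, nothing is read from the p-values of Id1 and Id3 either. Each TUDCA library lay above DMSO for both genes, with TUDCA replicate 1 the higher, the order also seen for Hamp and Hamp2.

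Atoh8, a helix-loop-helix factor that promotes Hamp transcription, had 22.8 and 6.87 RPKM in TUDCA replicates 1 and 2, against 1.66 RPKM in DMSO. Its log2 difference was 2.36 ± 0.29 (limma adjusted p = 1.4e-13), and robust estimation did not call it (adjusted p between 1.2e-15 and 0.626 over 9 alternatives). The differences of Atoh8 in TUDCA replicates 1 and 2 were 3.16 and 1.57, farther apart than the pooled SE conveys. Id2 had 141.9 and 99.1 RPKM with TUDCA, against 17.8 RPKM in DMSO, a rise of 2.67 ± 0.22 (limma adjusted p = 4.4e-30). Its values were known when the list was drawn up, so nothing is read from its p-value. Of the 6 called genes of the list, 5 were higher in TUDCA replicate 1 than in TUDCA replicate 2, an order that 53.2% of all genes had. For hemojuvelin (Hjv), 1 of the 5, the TUDCA libraries were nearly equal at 12.47 and 12.35 RPKM.

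Smad7 and Smad6, other targets of the same signalling, did not pass, and neither did its ligand Bmp6 or its receptor Acvr1. Smad7, a SMAD that inhibits the BMP receptor, had 23.3 and 14.4 RPKM with TUDCA and 18.3 RPKM in DMSO, so that DMSO lay between them (limma adjusted p = 0.998). Smad6, another inhibitory SMAD, had 4.42 and 1.84 RPKM with TUDCA and 1.92 RPKM in DMSO (limma adjusted p = 0.724). Bmp6, the ligand that carries the iron signal to hepatocytes, had 7.26 and 7.55 RPKM with TUDCA and 9.02 RPKM in DMSO (limma adjusted p = 0.878), and Bmp2 was under 1 RPKM in all libraries. Acvr1, a BMP type I receptor, had the second-lowest difference of the list (-0.61 ± 0.26, limma adjusted p = 0.274).

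**Figure D4:**
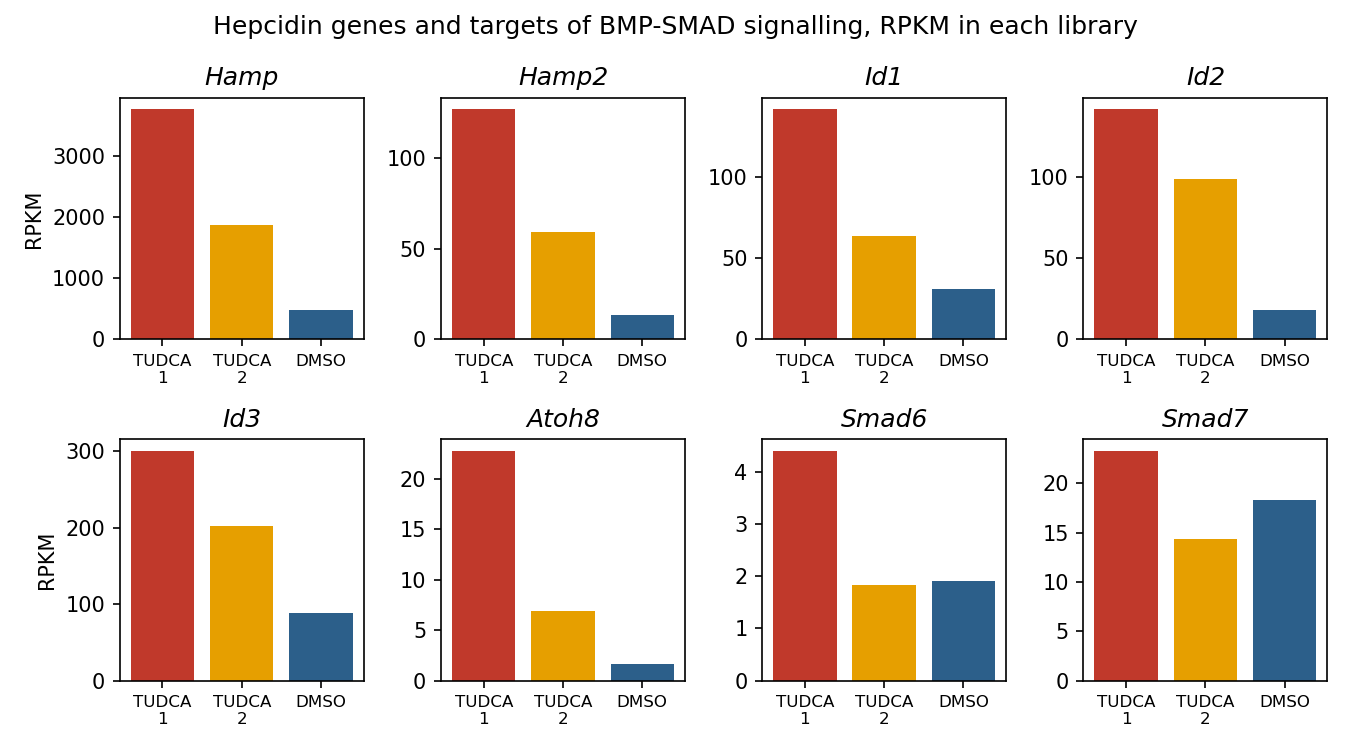
RPKM of the hepcidin genes, Id1, Id2, Id3, Atoh8, Smad6 and Smad7 in TUDCA replicates 1 and 2 and DMSO, each bar 1 library on an axis from 0. The first 6 genes stand above DMSO in both TUDCA libraries and highest in TUDCA replicate 1, while for Smad6 and Smad7 TUDCA replicate 2 is below DMSO.

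Hemojuvelin rose too. Hjv, listed under its older symbol Hfe2, had 12.47 and 12.35 RPKM in TUDCA replicates 1 and 2, against 4.87 RPKM in DMSO (1.19 ± 0.28, limma adjusted p = 0.0014). The TUDCA libraries were nearly equal, 2.56 and 2.54 times DMSO. Furin, a convertase that processes pro-hepcidin and also releases soluble hemojuvelin, had 124.5 and 120.8 RPKM with TUDCA and 192.5 RPKM in DMSO (-0.65 ± 0.21, limma adjusted p = 0.0609). It was called lower after rescaling to TPM (adjusted p = 0.0425) and by voom on whole reads (adjusted p = 0.0392). Over the 9 alternatives, these were the only settings that added a gene of the 5 lists.

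On the cytokine side, Il22ra1, a receptor chain for interleukin-22, which induces hepcidin in mice, had 10.7 and 14.5 RPKM with TUDCA, against 3.00 RPKM in DMSO (1.75 ± 0.28, limma adjusted p = 1.6e-07). Here TUDCA replicate 2 was the higher. Stat3 (0.01), the factor that carries the interleukin-6 signal, was not called, and neither was Socs3 (0.43 ± 0.27, limma adjusted p = 0.631), its feedback inhibitor. Il6 itself stood at 0.0943 and 0.261 RPKM with TUDCA and 0.256 RPKM in DMSO. The liver factors Cebpa (0.18) and Creb3l3 (-0.25), which act on the Hamp promoter, were not called.

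Among 33 measured genes of iron and heme transport, 3 rose, none fell and 30 did not pass (median 0.04). The share called was 9.09%, beside 2.65% of all genes, and nothing is read from it. Steap4, a ferrireductase that cytokines induce, had 206.3 and 138.3 RPKM in TUDCA replicates 1 and 2, against 48.9 RPKM in DMSO (1.77 ± 0.21, limma adjusted p = 2.9e-14). Cp, the plasma ferroxidase ceruloplasmin that loads iron onto transferrin, had 909.7 and 756.5 RPKM with TUDCA, against 399.4 RPKM in DMSO (1.05 ± 0.20, limma adjusted p = 1.3e-05). Hp, haptoglobin, which binds free haemoglobin, had 4102 and 4608 RPKM with TUDCA, against 2190 RPKM in DMSO (0.99 ± 0.20, limma adjusted p = 6.8e-05). Cp and Hp also encode acute phase proteins. The importers Slc11a2 (-0.01) and Slc39a14 (0.04) and the heme scavenger Hpx (0.25), the gene with the highest level in every library, were not called. Snx3 and Picalm, which handle endosomes that carry transferrin receptor, had the lowest differences of the list (-0.39 each, not called), and Heph, another ferroxidase, was under 0.1 RPKM in every library.

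Of 20 measured genes of iron sensing and ferritin turnover, 1 rose (5%, beside 2.65% of all genes called), none fell and 19 did not pass (median 0.16). The gene was Nfe2l2, the transcription factor NRF2 that induces ferritin genes, with 140.3 and 148.7 RPKM in TUDCA replicates 1 and 2 and 80.4 RPKM in DMSO (0.84 ± 0.21, limma adjusted p = 0.0042), a call that ended without the variance trend (adjusted p between 0.0016 and 0.502 over 9 alternatives). Values of Nfe2l2 were known when the list was drawn up, so nothing is read from its p-value. The iron regulatory proteins Aco1 (0.32) and Ireb2 (0.25), the ubiquitin ligase subunit Fbxl5 that marks Ireb2 for degradation (0.37), and the ferritin autophagy receptor Ncoa4 (0.22) were not called. Epas1, an oxygen-regulated factor, was not called at 0.61, and neither were the prolyl hydroxylases Egln1 (-0.22) and Egln3 (-0.33). For Ireb2 and Ncoa4, DMSO lay between the TUDCA libraries.

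None of 18 measured genes of heme synthesis and breakdown and none of 32 measured genes of iron-sulfur cluster assembly was called by limma (medians -0.01 and 0.01), also under each of the 9 alternatives. With 2.65% of all genes called, lists of this size would hold few calls or none, so nothing is read from their absence. Alas1, the rate-limiting enzyme of hepatic heme synthesis, differed by -0.23 and the ferrochelatase Fech by 0.43. Hmox1, the heme oxygenase that frees iron from heme, had 149.0 and 218.2 RPKM with TUDCA and 270.7 RPKM in DMSO (-0.58 ± 0.20, limma adjusted p = 0.108). In cluster assembly the largest differences were those of the co-chaperone Hscb (0.81 ± 0.26, limma adjusted p = 0.0727) and the cytosolic factor Ciao2b (-0.64 ± 0.22, limma adjusted p = 0.0968). Clpx (0.33), Slc25a38 (-0.38), Nubpl (0.44) and Glrx5 (-0.49), next in order at either end of their lists, were not called.

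**Figure D5:**
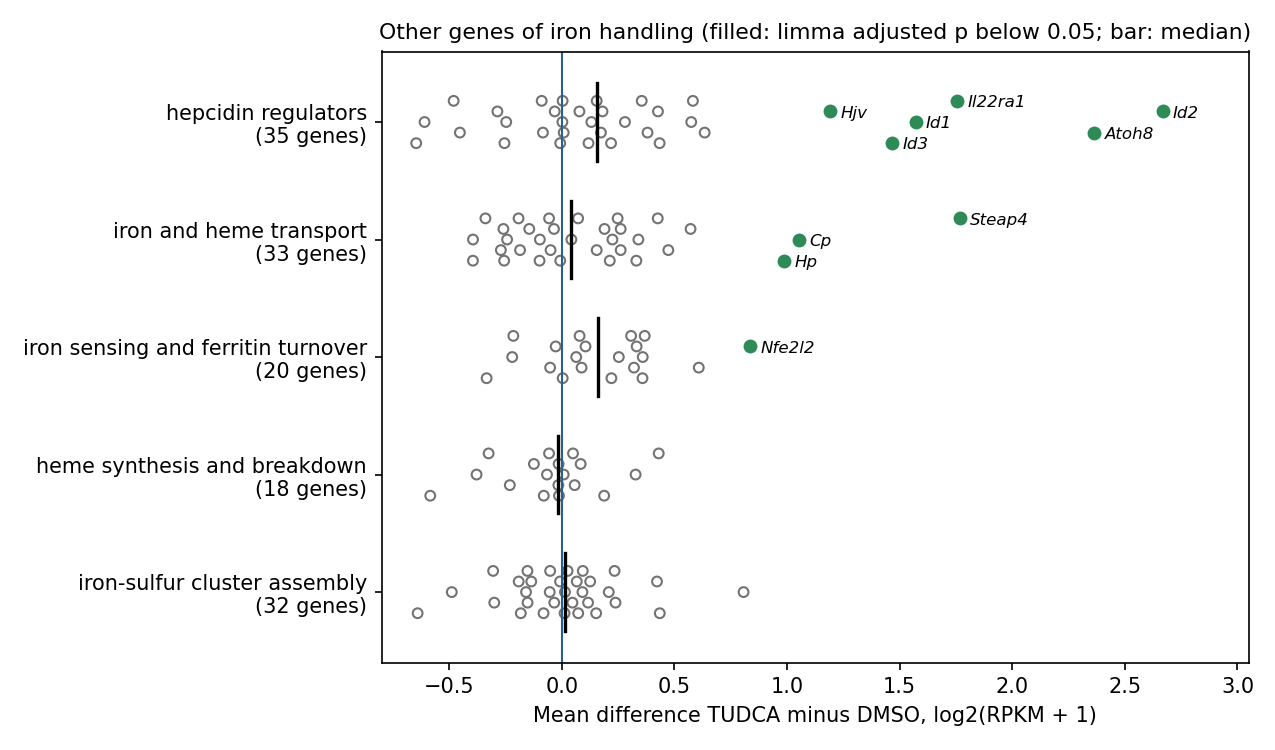
Mean difference of the TUDCA libraries from DMSO in log2(RPKM + 1) for 138 other genes of iron handling in 5 lists, with 1 point per gene, filled and named where the limma adjusted p was below 0.05, and a bar at each list's median. All 10 filled genes lie on the higher side, 6 of them in the list of hepcidin regulators, which also holds targets of BMP-SMAD signalling.

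The libraries carried the transcripts of hepatocytes, with summed levels of 12 markers of 14562 and 12773 RPKM with TUDCA and 11470 RPKM in DMSO. Of these markers 2 rose by limma, the liver factor Hnf4a (log2 difference 0.76, limma adjusted p = 0.0123) and the fibrinogen gene Fgb (1.26, limma adjusted p = 4.3e-08). Most of the rise of the sums came from Alb and Fgb, while Apoa1 and Ass1 were lower in both TUDCA libraries. The higher sums therefore do not hold for every marker. Hnf4a, Fgb, Alb, Apoa1 and Ass1, like Cd14 and Spp1 below, were named after their values were seen. Macrophage markers summed to 724.9 and 794.8 RPKM with TUDCA and 682.9 RPKM in DMSO, with none of 12 measured called and none of 14 at 0 throughout. Cd14 was the largest part of each sum, with 400.2 and 452.3 RPKM with TUDCA and 326.4 RPKM in DMSO. The other macrophage markers went both ways, so the higher TUDCA sums do not describe the list as a whole. Markers of sinusoidal endothelial cells, which make BMP ligands in the liver, summed to 22.1 and 21.4 RPKM with TUDCA and 26.0 RPKM in DMSO, with none of 5 measured called. These markers also went both ways, so the lower TUDCA sums do not describe the endothelial list as a whole. Stellate cell markers summed to 14.3 and 12.4 RPKM with TUDCA and 15.8 RPKM in DMSO, and neutrophil markers to 26.4 and 18.6 RPKM with TUDCA and 19.3 RPKM in DMSO, with Ly6g at 0; none of either list was called. Erythroid markers summed to 1.52 and 1.72 RPKM with TUDCA and 1.96 RPKM in DMSO, with Rhag at 0. Of 4 measured cholangiocyte markers 1 rose, Spp1 (0.78, limma adjusted p = 0.0046), with 767.5 and 578.2 RPKM with TUDCA and 387.5 RPKM in DMSO, and it made up most of the list's sum of 805.2 and 629.1 RPKM with TUDCA and 419.5 RPKM in DMSO. Cftr and Sctr were at 0 in all libraries. The part of these shifts in the iron values was not tested, and in bulk RNA fewer cells of a type and less RNA per cell cannot be told apart.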

How the data were processed

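Messenger RNA was taken up with oligo(dT) beads and copied from random primers, per the labels' protocols. The authors deposited RPKM values, 1 table per library with 37620 Ensembl gene identifiers. Tools named, per the submitters' processing notes, are Bowtie2, CASAVA, HTSeq and TopHat2 2.0.7. Genome build, annotation and strand setting were not given in the sources used here. Symbols came from GENCODE M21 for 32897 identifiers, and 232 of 234 list entries had a row, 4 of them under another symbol.

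A gene length giving whole reads in every library, within a relative 1e-09, was found for all 19146 genes above 0, at totals of 9757547 and 10575699 reads for TUDCA replicates 1 and 2 and 10774289 for DMSO. The smallest such numbers are printed, and a true number may be a multiple. The Poisson intervals were computed from these smallest numbers and would be narrower at a multiple.

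TUDCA was compared with DMSO on log2(RPKM + 1), which understates differences of low genes, for 11300 genes averaging 1 RPKM or more, with limma 3.58.1 in R 4.3.3 (variance trend, Benjamini-Hochberg adjustment, threshold 0.05). The 1 residual degree of freedom came from the TUDCA pair, and limma gave each gene the spread common at its level. P-values and SE are therefore too small for genes whose TUDCA libraries lie far apart. The fit was also run on simulated reads. The simulated DMSO and TUDCA libraries shared the same spread for all genes, so the run cannot check whether DMSO varied like the TUDCA pair. The 10 genes and the 12 lists were chosen with earlier results of these data known, including values of Hamp, Id2 and Nfe2l2. The text names the 10 genes, called list genes, the 2 highest and 2 lowest of each iron list, genes set by name, and the 3 genes nearest in pattern to Hamp and to Tfrc. Alternatives were other pseudocounts, filters and scalings, limma without trend or with robust estimation, voom on whole reads, and each TUDCA library alone. An entry of the marker lists is not named here.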

Additional observations from a re-analysis of the deposited data

How the results depend on the processing

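Hamp and Hamp2 were at least 1 above DMSO in both TUDCA libraries under every scaling tried, where 2 of the 10 genes passed each time. With either TUDCA library alone these genes pass by the rule itself, which asks for both libraries, and the count stayed at 2 of the 10. Quantile normalization moved the median of all genes by -0.11 in TUDCA replicate 1 and -0.05 in TUDCA replicate 2. It left Fth1 level with DMSO, as it must for a gene of the same rank in every library. Median centring moved TUDCA replicate 1 by -0.06, which is more than Tfr2 lay above DMSO there (0.05), so its direction in that library depends on the scaling. The mean difference of Tfrc lay between -0.38 and 0.35 and that of Tmprss6 between -0.06 and 0.14 with 1 TUDCA library. With no filter, limma called 0 genes higher and 0 lower over all genes, and 0 higher in the lists of hepcidin regulators, of iron and heme transport and of iron sensing and ferritin turnover; the last also had 0 without the variance trend. Rescaling to TPM and voom each called 1 hepcidin regulator lower. Over all genes, 87 were at least 1 higher and 32 at least 1 lower in both TUDCA libraries. A pseudocount of 0.1 gave 168 and 57, no filter gave 72 lower and a filter at 5 RPKM gave 21 lower, and single TUDCA libraries gave 123 to 215 higher and 65 to 69 lower. The cause of these shifts was not tested. With 1 TUDCA library there is no residual degree of freedom and so no test. No paired analysis was possible because the label of the DMSO library carries no replicate number.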
